A study of Mus musculus with 9 samples.

Results

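The small heat shock genes that muscle fibres express, and the gene of their co-chaperone BAG3, were followed in mouse muscle across age and treatment with GW8510. The group held 8 genes, Hspb1, Hspb2, Hspb3, Hspb6, Hspb7, Hspb8, Cryab and Bag3, chosen by symbol out of the 55536 genes of the deposited tables. All 8 passed the filter on low counts, which left 14384 genes for testing. RNA-seq libraries had been made from total muscle RNA of male ICR mice, an outbred stock. Aged GW8510 mice were 18 months old and had received GW8510, a benzenesulfonamide compound, by daily intraperitoneal injection at 2 mg/kg for 14 days (libraries 1, 3 and 4). Aged vehicle mice were also 18 months old and received sodium carboxymethylcellulose, the solvent (libraries 1, 3 and 4). Young vehicle mice were 2 months old (libraries 2, 3 and 4). The labels name no particular muscle and do not say that each library came from a separate mouse, and p-values therefore reflect variation among libraries that may be technical.

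Small heat shock proteins share the alpha-crystallin domain and bind unfolding proteins without using ATP, which keeps those proteins soluble until other chaperones refold or remove them. In striated muscle they sit on the Z-disc, on desmin filaments and on titin, structures that are strained with each contraction. BAG3 joins HSPB8 and other small heat shock proteins to Hsp70, and the complex passes damaged filamin to autophagy, a route known as chaperone-assisted selective autophagy. Inherited changes in CRYAB, BAG3, HSPB1, HSPB3 and HSPB8 cause myopathies or motor neuropathies in people.

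The promoters of the 4 members on which the comparisons turned are shown first, to show which of them hold a heat shock factor motif near the start. The RefSeq promoter table, on GRCm38.p6, held 6 of the 8 members; Cryab and Hspb2 had no entry. Each sequence runs 5′ to 3′ on the gene's own strand, from 250 bases before the annotated start of transcription to 30 bases after it. The Hspb7 window lies on the plus strand at chr4:141420529-141420808, and its capitals mark an E-box (CANNTG), the motif that MyoD-family factors bind. The Hspb6 window lies on the plus strand at chr7:30552290-30552569, and its capitals mark CCAAT boxes (CCAAT on either strand). The Hspb1 window lies on the plus strand at chr5:135887669-135887948 and the Hspb8 window on the minus strand at chr5:116422835-116423114. Capitals in those last windows mark pairs of heat shock factor units, GAANNTTC or TTCNNGAA.
Hspb7: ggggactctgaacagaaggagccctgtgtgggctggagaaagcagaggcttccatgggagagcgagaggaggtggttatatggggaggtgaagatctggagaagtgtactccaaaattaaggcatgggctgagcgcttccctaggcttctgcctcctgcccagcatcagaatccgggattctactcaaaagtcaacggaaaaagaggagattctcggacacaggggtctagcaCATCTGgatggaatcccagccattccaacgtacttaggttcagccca
Hspb6: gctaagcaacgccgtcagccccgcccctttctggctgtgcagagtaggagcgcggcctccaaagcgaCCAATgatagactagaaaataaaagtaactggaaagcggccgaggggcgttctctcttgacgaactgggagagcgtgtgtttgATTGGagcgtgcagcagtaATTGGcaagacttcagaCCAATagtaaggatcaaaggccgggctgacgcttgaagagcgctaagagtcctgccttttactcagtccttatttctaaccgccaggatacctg
Hspb1: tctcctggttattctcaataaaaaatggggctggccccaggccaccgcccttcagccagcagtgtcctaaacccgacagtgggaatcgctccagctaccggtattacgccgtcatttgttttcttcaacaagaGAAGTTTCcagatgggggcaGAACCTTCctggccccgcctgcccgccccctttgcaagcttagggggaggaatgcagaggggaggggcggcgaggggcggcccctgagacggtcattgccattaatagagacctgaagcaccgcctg
Hspb8: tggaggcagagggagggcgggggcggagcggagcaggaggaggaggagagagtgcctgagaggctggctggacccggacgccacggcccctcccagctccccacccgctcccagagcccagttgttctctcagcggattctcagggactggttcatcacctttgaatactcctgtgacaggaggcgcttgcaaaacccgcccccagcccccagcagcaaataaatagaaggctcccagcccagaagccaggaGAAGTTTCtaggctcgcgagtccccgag

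The paired heat shock unit, which reads the same on both strands, was found 2 times in the Hspb1 window and once in that of Hspb8. Over the table's full 300 bases it also stood in the promoters of Hspb3 and Bag3, where the match for Bag3 lay more than 30 bases after the start. No match was present in the promoters of Hspb6 and Hspb7. Of all 32851 promoters in the table, 15.1% held the paired unit. The longer form, in which another GAA or TTC unit follows after 2 further bases to make 3 alternating units, was searched on both strands and was in none of the 6 and in 0.603% of all promoters. Hspb6 held 4 CCAAT boxes, a motif present in 37.4% of promoters, and none of the other 5 members held any. An E-box stood in the promoters of Hspb7, Hspb1, Hspb3 and Hspb8, as in 72.3% of all promoters. Hspb3 held a TATA box (TATAAA) and, overlapping it, a match to the MEF2 site, found in 13.6% and 3.19% of promoters. These matches describe letters in the windows and not binding.

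The 9 libraries held 21718965 to 27437970 estimated counts each, enough that every member had at least 472 counts in every library. Aged vehicle library 4 stood apart. Across genes its log2 CPM correlated with those of the other aged vehicle libraries at r = 0.9448 and 0.9402, against 0.9597 to 0.9731 for every other pair within a group. In that library the summed level of 12 denervation and injury genes was 2817 CPM, against 542 and 679.9 CPM in aged vehicle libraries 3 and 1, and Fbxo32, a ubiquitin ligase induced when muscle wastes, accounted for 1536 CPM of it. The 12 fibre markers, all tested, summed to 156348 to 189060 CPM in aged GW8510 muscle, 138119 to 189759 CPM in aged vehicle muscle and 179750 to 227583 CPM in young vehicle muscle. Of 10 cardiac markers 5 were tested, Myl7 was at 0 in every library, and the sums were 24.1 to 35.6 CPM in aged GW8510, 16.9 to 75.8 CPM in aged vehicle and 193 to 743 CPM in young vehicle muscle. Actc1, cardiac alpha-actin, made up nearly all of the young sums, at 187, 599 and 736 CPM, and was 21.4-fold lower in aged vehicle than young vehicle muscle (edgeR adjusted p = 0.0462) and 40.2-fold lower in aged GW8510 than young vehicle muscle (edgeR adjusted p = 0.0307). Myl4, an atrial myosin light chain gene, went the other way, 3.52-fold higher in aged vehicle than young vehicle muscle (edgeR adjusted p = 0.0465), and Tnnt2 and Nppa did not pass. Of 10 adipocyte markers, all tested, Pparg alone passed, 3.36-fold higher in aged GW8510 than young vehicle muscle (edgeR adjusted p = 0.0355). In that comparison 8 of the 10 had a log2 fold change above 0 and 2 below. The 10 summed to 608 to 1122 CPM in aged GW8510, 474 to 725 CPM in aged vehicle and 428 to 631 CPM in young vehicle muscle. Adipoq had 1.41, 0.53 and 18.7 CPM in aged GW8510 libraries 1, 3 and 4. In young vehicle libraries 2, 3 and 4 it had 5.92, 2.41 and 3.28 CPM. In whole tissue, fewer cells of a type and less RNA per cell cannot be told apart.

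Levels per transcript length were compared first, in TPM (transcript abundance corrected for gene length and scaled to a fixed library total) as deposited. Cryab, which encodes alpha-B-crystallin, the chaperone of desmin and titin, led the order in every group: 1124 ± 274 TPM in aged GW8510 muscle, 1528 ± 244 TPM in aged vehicle muscle and 997 ± 156 TPM in young vehicle muscle (SD, n = 3 each). Hspb6, whose product is a substrate of protein kinase A, came next in aged muscle at 859 ± 63.6 TPM with GW8510 and 1061 ± 279 TPM with vehicle, and was behind Hspb1 in young vehicle muscle at 456 ± 113 TPM. In both aged groups the libraries' ranges of Cryab and Hspb6 overlapped, so their order there does not exceed the spread. In young vehicle muscle Cryab lay above all other members in every library, while Hspb1 and Hspb6 overlapped.

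At the low end, Hspb3 and Bag3 had the smallest TPM in all 3 groups. Hspb3, which encodes the partner of HSPB2 in a muscle-specific complex, averaged 48.1 ± 12.3 TPM in aged GW8510 muscle, 61.3 ± 7.48 TPM in aged vehicle muscle and 49.7 ± 5.16 TPM in young vehicle muscle. Bag3 averaged 56.0 ± 9.59 TPM in aged GW8510, 58.4 ± 9.83 TPM in aged vehicle and 63.9 ± 6.31 TPM in young vehicle muscle, and overlapped Hspb3 in both aged groups but not in the young one. Hspb7, whose product binds filamin C, moved most in rank of mean TPM. It was the fifth member in aged GW8510 muscle at 191 ± 35.4 TPM and the fourth in aged vehicle muscle at 441 ± 393 TPM. In young vehicle muscle it was the sixth at 75.2 ± 7.54 TPM. It overlapped Hspb8 in both aged groups, and Hspb2 and Bag3 in the young one. Its place against those genes there does not exceed the spread. In aged vehicle libraries 1 and 3 Hspb7 had 183 and 247 TPM, below Hspb8 at 350 and 279 TPM. In library 4 it lay above, at 893 against 393 TPM.

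The 8 genes together made up 2550 to 3245 TPM in aged GW8510 libraries, 3190 to 5686 TPM in aged vehicle libraries and 2359 to 2966 TPM in young vehicle libraries. Aged vehicle library 4 supplied the 5686 TPM; the other aged vehicle libraries held 3190 and 3856 TPM. Cryab and Hspb6 supplied 67.2% to 68.2% of the sum in aged GW8510 libraries, 52.8% to 69.0% in aged vehicle libraries and 52.8% to 57.3% in young vehicle libraries. The Hspb7 share was 6.02% to 7.42% in aged GW8510 libraries, 4.75% to 15.7% in aged vehicle libraries and 2.36% to 3.56% in young vehicle libraries. The Hspb7 share did not overlap between young and aged libraries. The Cryab and Hspb6 share of aged vehicle library 4 was 52.80%, level with the lowest young value of 52.81%.

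**Figure D1:**
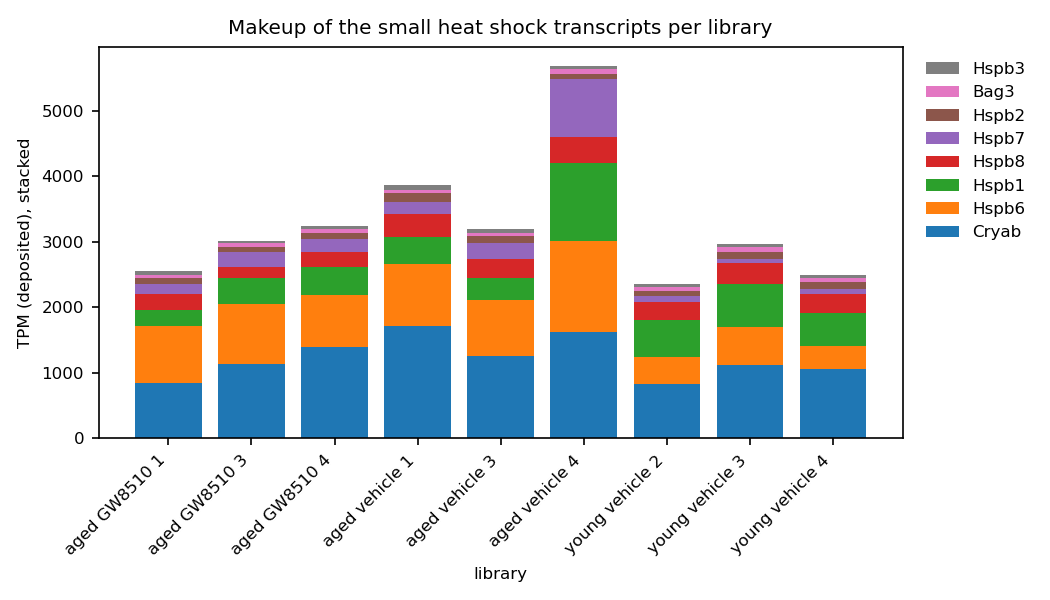
Stacked bars give the TPM of the 8 genes in each of the 9 libraries, with aged GW8510 on the left, aged vehicle next and young vehicle on the right. Aged vehicle library 4 is the tallest at 5686 TPM, and the Hspb7 segment is thinnest in the young vehicle libraries.

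The effect of age was read from aged vehicle against young vehicle muscle. Hspb6 and Hspb7 rose with age, 2.42-fold and 5.97-fold, and no member fell. These 2 of 8 stand against 1.22% of all genes tested that passed in either direction and, split by direction, 0.521% that passed as higher and 0.695% as lower, at an adjusted p under 0.05 in edgeR's quasi-likelihood test. Libraries of the 2 groups did not overlap for 3 of 8 members, Hspb6, Hspb7 and Cryab, all above, against 26.2% of genes in either direction and 12.7% above. The median log2 fold change of the 8 was 0.33, against 0.01 over all genes tested.

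Hspb6 had 999, 979 and 1325 CPM (counts scaled to a common library size with TMM factors) in aged vehicle libraries 1, 3 and 4, against 376, 602 and 387 CPM in young vehicle libraries 2, 3 and 4. All aged vehicle libraries lay above all young ones, and the lowest aged value exceeded the highest young value by more than the spread within either group. The log2 fold change was 1.27 (SE 0.23, edgeR adjusted p = 0.0383). It was 1.12 to 1.53 in the 9 fits that each left out a library, and the adjusted p passed 0.05 in 0 of the 9, at 0.0507 to 0.131. Hspb6 overlaps Proser3 by 122 bases and Lin37 by 3 bases, both on the opposite strand, and those genes had 41.1 to 78.0 and 73 to 140 counts per library against 9913 or more for Hspb6. Smooth muscle also expresses Hspb6, and its 10 markers, all tested, summed to 3358 to 5377 CPM in aged GW8510 libraries, 3618 to 7245 CPM in aged vehicle libraries and 2817 to 3284 CPM in young vehicle libraries. Most of that sum came from Des, which fibres express too. Acta2, which defines smooth muscle, had 107 to 115 CPM in aged GW8510 libraries. It had 43.9 to 121 CPM in aged vehicle libraries and 74.0 to 126 CPM in young vehicle libraries. None of the 10 markers passed in any comparison. With age 2 of the 10 had a log2 fold change above 0 and 8 below, with a median of −0.30. In aged GW8510 against young vehicle muscle 7 lay above 0 and 3 below, with a median of 0.15. Myh7, the slow fibre myosin gene, had 1.78 to 23.0 CPM in aged GW8510 libraries, 0.95 to 13.8 CPM in aged vehicle libraries and 2.20 to 5.31 CPM in young vehicle libraries, and the 3 groups overlapped. Myh7 was 1 of 11 slow fibre markers tested, and none of the 11 passed in any comparison. With age 9 of the 11 had a log2 fold change above 0 and 2 below, with a median of 0.38. In aged GW8510 against young vehicle muscle 9 lay above 0 and 2 below, with a median of 1.27. The median over all genes tested was 0.01 in both comparisons. The part of smooth muscle cells and slow fibres in the Hspb6 result was not tested.

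Hspb7 had 294, 436 and 1336 CPM in aged vehicle libraries 1, 3 and 4, against 115, 114 and 118 CPM in young vehicle libraries 2, 3 and 4. The coefficient of variation was 82.1% among aged vehicle libraries and 1.69% among young ones, the smallest of any member in any group. The aged spread came with library 4 far above the others, and none of the 3 overlapped the young range. The log2 fold change was 2.58 (SE 0.49, edgeR adjusted p = 0.0402). Without aged vehicle library 4 it was 1.66 with an adjusted p of 0.0103, and over all fits that left out a library it was 1.66 to 2.94 and passed in 3 of 9, those without an aged vehicle library.

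**Figure D2:**
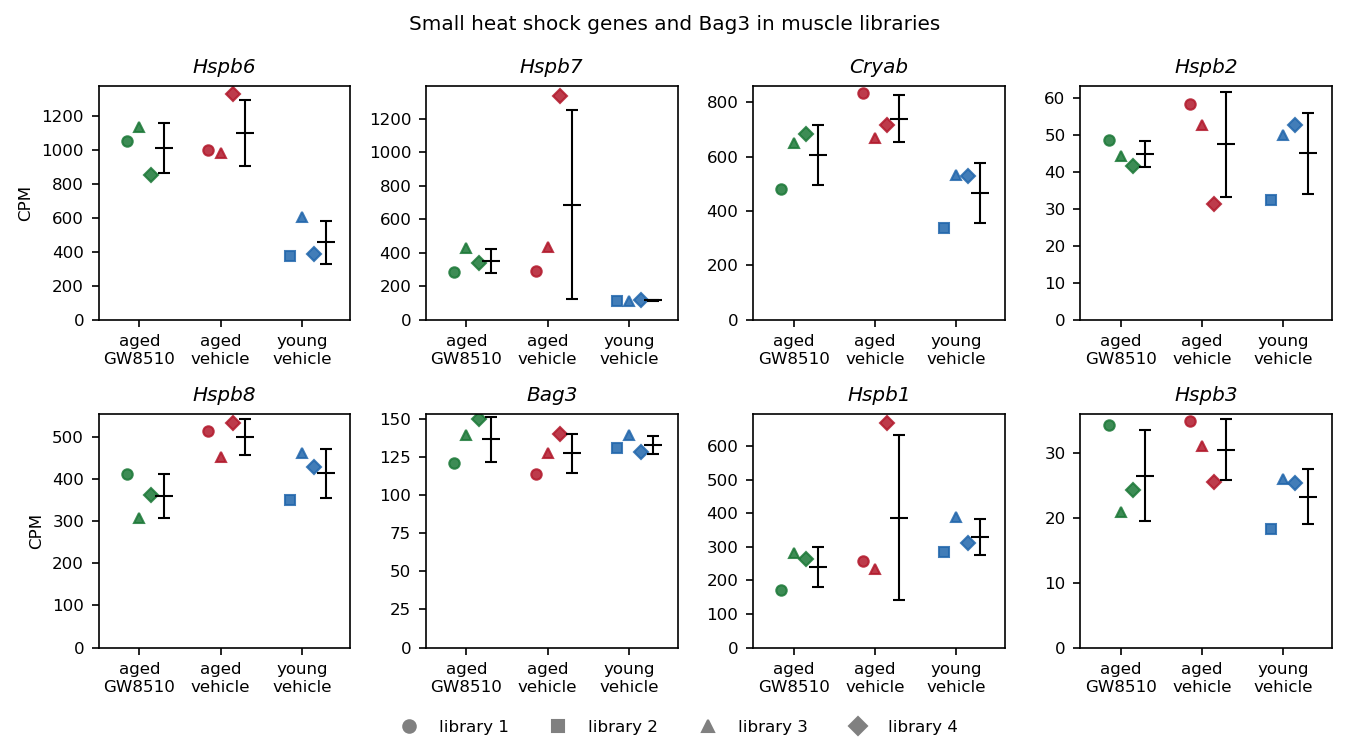
Points give the CPM of each gene in each library on a linear axis, with bars for the group means. Aged GW8510 is on the left of each panel, aged vehicle in the middle and young vehicle on the right. For Hspb6 and Hspb7 both aged groups lie above the young one, and aged vehicle library 4 is the highest point for Hspb7 (1336 CPM) and Hspb1 (670 CPM).

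Cryab did not pass the test. It had 835, 667 and 716 CPM in aged vehicle libraries, against 337, 533 and 529 CPM in young vehicle libraries. Every aged vehicle value lay above every young one, by a log2 fold change of 0.66 (SE 0.22, edgeR adjusted p = 0.164). Hspb2, whose product binds and activates the myotonic dystrophy kinase DMPK, is the head-to-head neighbour of Cryab. It had 58.2, 52.7 and 31.3 CPM in aged vehicle libraries, against 32.4, 49.8 and 52.7 CPM in young vehicle libraries, so the groups overlapped (log2 fold change 0.08, SE 0.25). The genes lie on chromosome 9, Cryab at 50751325 to 50756636 on the plus strand and Hspb2 at 50751078 to 50752354 on the minus strand (GENCODE M21 on GRCm38), and share 1030 bases. The sources used here do not say whether counting used strand, so it is unknown whether reads from the shared bases were told apart. The ratio of Cryab to Hspb2 CPM was 9.90, 14.7 and 16.4 in aged GW8510 libraries 1, 3 and 4. It ranged from 12.7 to 22.9 in aged vehicle libraries, highest in library 4, and from 10.03 to 10.7 in young vehicle libraries.

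HSPB8 and BAG3 act as a pair, and neither gene passed the test for age. Hspb8 had 515, 452 and 534 CPM in aged vehicle libraries, against 350, 461 and 430 CPM in young vehicle libraries, and the groups overlapped (log2 fold change 0.27, SE 0.17, edgeR adjusted p = 0.404). Bag3 had 114, 127 and 140 CPM in aged vehicle libraries, against 131, 140 and 128 CPM in young vehicle libraries. Its log2 fold change was −0.06 with a 95% interval of −0.38 to 0.26, and the groups overlapped. Bag3 also had the smallest range over the 9 libraries of any member.

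Hspb1, the classical heat-inducible member, which binds actin and is phosphorylated by MAPKAPK2, had 257, 233 and 670 CPM in aged vehicle libraries, against 286, 389 and 312 CPM in young vehicle libraries. Aged vehicle libraries 1 and 3 lay below all young values and library 4 lay above them. The log2 fold change was 0.24 (SE 0.38, edgeR adjusted p = 0.767) and −0.42 without library 4, so its direction rests on that library. Hspb3 had 35.0, 31.1 and 25.6 CPM in aged vehicle libraries, against 18.4, 26.0 and 25.5 CPM in young vehicle libraries (log2 fold change 0.39, SE 0.22, edgeR adjusted p = 0.353). The lowest aged value lay inside the young range.

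Treatment was read from aged GW8510 against aged vehicle muscle. No member passed, and neither did any other gene: 0 of 8 members and 0% of the 14384 genes passed in edgeR's quasi-likelihood test. DESeq2 and limma-voom also passed 0 of the 8, and over all genes they passed 8 and 0. At an unadjusted edgeR p under 0.05, 1 of 8 members (Hspb8) stood against 4.5% of all genes. The 2 groups did not overlap for 1 of 8 members, again Hspb8, against 7.22% of genes in either direction, 3.89% above and 3.33% below. The median log2 fold change of the 8 was −0.25, against 0.01 over all genes. Of the 8, 7 had a value below 0 and 1 above, against 50.9% of all genes above. Without aged vehicle library 4, the values were −0.06 for Hspb7, −0.04 for Hspb1, 0.02 for Hspb6 and −0.32 for Hspb2.

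Hspb8 had 411, 307 and 362 CPM in aged GW8510 libraries, against 515, 452 and 534 CPM in aged vehicle libraries. All 3 GW8510 values lay below all 3 aged vehicle values. The log2 fold change was −0.47 (SE 0.17, edgeR adjusted p = 0.934), with a range of −0.58 to −0.37 over the fits that left out a library. Bag3 had 121, 139 and 150 CPM in aged GW8510 libraries and 114, 127 and 140 CPM in aged vehicle libraries, a log2 fold change of 0.10 (SE 0.14). The ratio of Hspb8 to Bag3 CPM was 2.21 to 3.40 in aged GW8510 libraries, 3.54 to 4.52 in aged vehicle libraries and 2.67 to 3.35 in young vehicle libraries.

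Hspb7 had 288, 432 and 337 CPM in aged GW8510 libraries, against 294, 436 and 1336 CPM in aged vehicle libraries. The GW8510 values spanned nearly the same range as aged vehicle libraries 1 and 3, and library 4 alone lay above. The log2 fold change was −0.97 (95% interval −1.997 to 0.06, edgeR adjusted p = 0.934), and without aged vehicle library 4 it was −0.06. Hspb1 showed the same dependence, with 172, 283 and 264 CPM in aged GW8510 libraries against 257, 233 and 670 CPM in aged vehicle libraries. Its log2 fold change was −0.69 (SE 0.38), and −0.04 without that library.

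Hspb6 and Cryab, which led the TPM order in aged muscle, also overlapped between treatments. Hspb6 had 1052, 1136 and 849 CPM in aged GW8510 libraries, against 999, 979 and 1325 CPM in aged vehicle libraries (log2 fold change −0.12, 95% interval −0.64 to 0.39). Cryab had 480, 651 and 684 CPM in aged GW8510 libraries, against 835, 667 and 716 CPM in aged vehicle libraries (log2 fold change −0.29, SE 0.22). Aged GW8510 library 1 was the lowest of the 6 for Cryab, and it was also the lowest for Hspb1. Hspb2 had 48.4, 44.3 and 41.6 CPM in aged GW8510 libraries against 58.2, 52.7 and 31.3 CPM in aged vehicle libraries (log2 fold change −0.08, SE 0.25). Hspb3 had 34.4, 20.9 and 24.4 CPM in aged GW8510 libraries against 35.0, 31.1 and 25.6 CPM in aged vehicle libraries (log2 fold change −0.20, SE 0.22). Both overlapped between the groups.

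**Figure D3:**
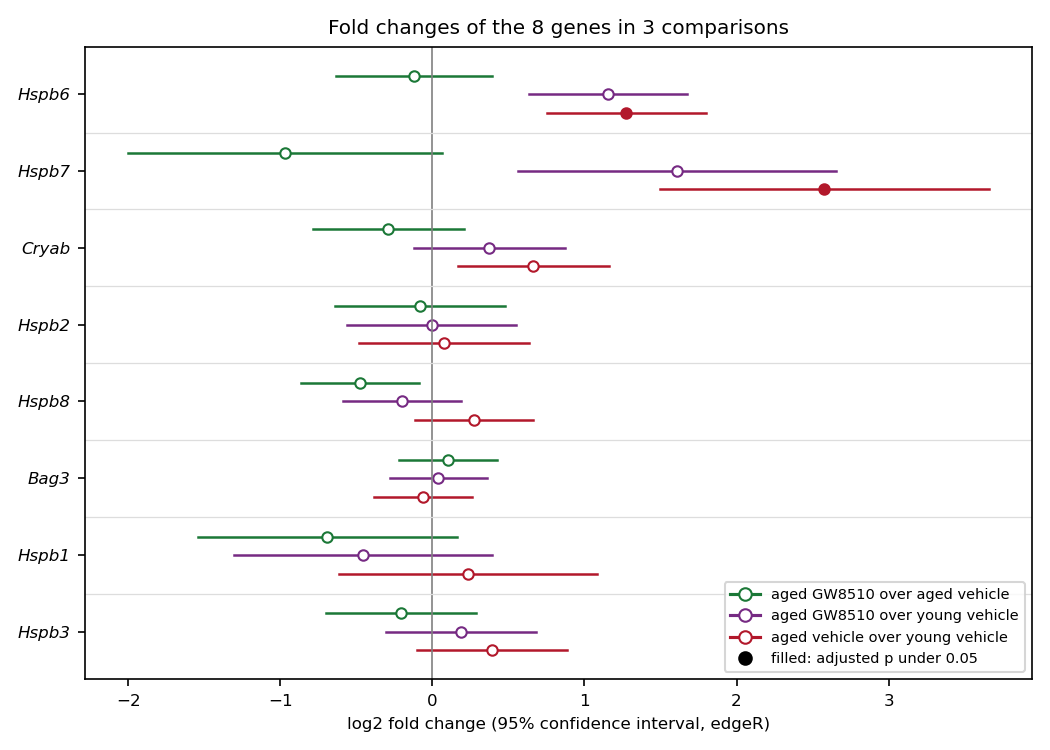
Points give the log2 fold change of each gene in the 3 comparisons with 95% intervals from edgeR's quasi-likelihood fit, and filled points passed an adjusted p of 0.05. Hspb6 (1.27) and Hspb7 (2.58) in aged vehicle over young vehicle muscle are the filled points.

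Aged GW8510 against young vehicle muscle showed whether the age difference was still measurable after treatment; it shares its young libraries with the age comparison and its GW8510 libraries with the treatment comparison. No member passed, 0 of 8 against 0.751% of all genes (0.334% higher, 0.417% lower) in edgeR's quasi-likelihood test. At an unadjusted p under 0.05, 2 of 8 (Hspb6 and Hspb7) stood against 16.7% of genes. DESeq2 passed both of these genes and limma-voom passed neither. Libraries did not overlap for 3 of 8 members, with Hspb6 and Hspb7 above and Hspb1 below, against 25.7% of genes in either direction, 12.9% above and 12.8% below.

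Hspb6, at 849 to 1136 CPM in aged GW8510 libraries against 376 to 602 CPM in young vehicle libraries, had a log2 fold change of 1.15 (SE 0.23, edgeR adjusted p = 0.0564). Hspb7, at 288 to 432 CPM in aged GW8510 libraries against 114 to 118 CPM in young vehicle libraries, had a log2 fold change of 1.61 (SE 0.47, edgeR adjusted p = 0.125). The spread in this fit is shared by all 9 libraries. In edgeR fits without aged vehicle library 4, a library of neither group compared, both genes passed, with log2 fold changes of 1.14 for Hspb6 (adjusted p = 0.0211) and 1.60 for Hspb7 (adjusted p = 0.00459).

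Side by side, the log2 fold changes against young vehicle muscle were 1.15 with GW8510 and 1.27 with vehicle for Hspb6, and 1.61 with GW8510 and 2.58 with vehicle for Hspb7. For Cryab they were 0.38 with GW8510 (SE 0.22) and 0.66 with vehicle. Hspb8 stood at −0.20 with GW8510 (SE 0.17) and 0.27 with vehicle. Aged GW8510 library 3, at 307 CPM, lay below the young range of 350 to 461 CPM, and libraries 1 and 4 lay inside it. Hspb1 stood at −0.45 with GW8510 (SE 0.38) and 0.24 with vehicle, and all 3 GW8510 values, at most 283 CPM, lay below the lowest young value of 286 CPM by a margin smaller than the spread in either group. The remaining members, Bag3, Hspb2 and Hspb3, had log2 fold changes of 0.04, −0.01 and 0.19 with GW8510 against young vehicle.

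**Figure D4:**
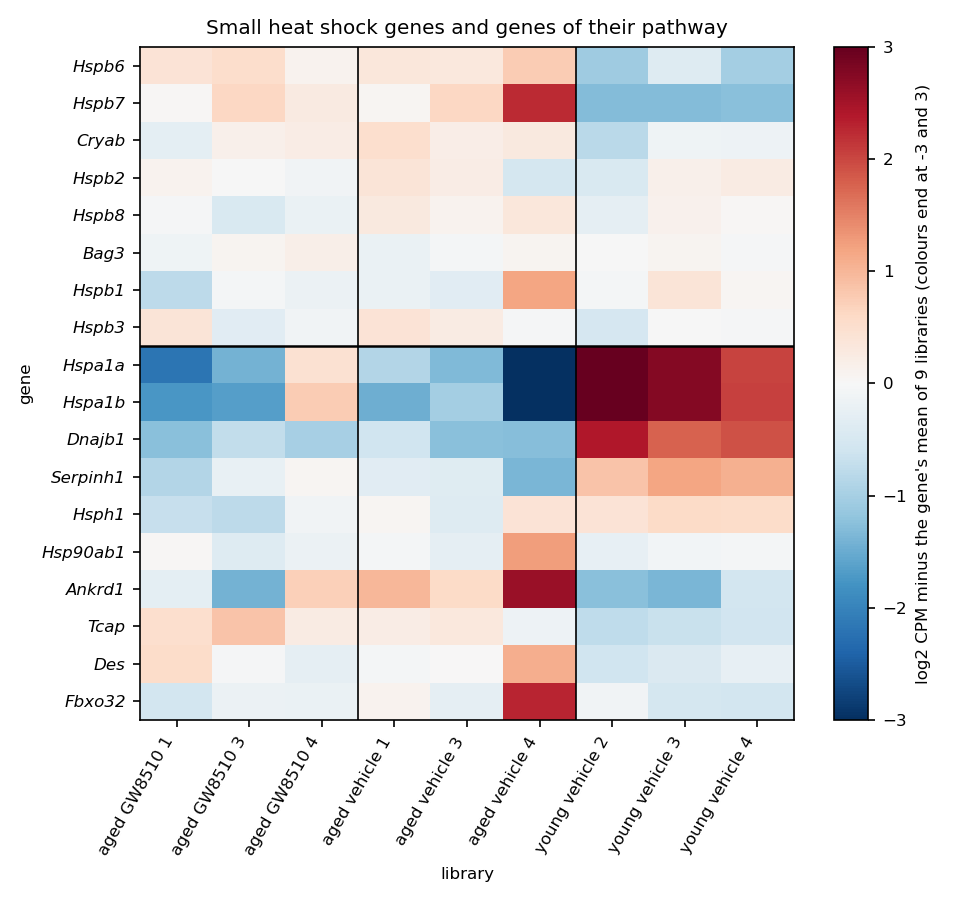
Colours give log2 CPM of each gene minus its mean over the 9 libraries, with aged GW8510 columns on the left, aged vehicle columns in the middle and young vehicle columns on the right. Hspb7 runs from −1.31 in young vehicle library 3 to 2.25 in aged vehicle library 4, and Bag3 stays between −0.21 and 0.19.

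Other genes of the small heat shock pathway were read from the same fit, list by list. Of the 4 other genes listed as small heat shock genes, Cryaa, Odf1 and Hspb9 were near silent. Cryaa, the lens crystallin, had 0 counts in every library. Odf1, a sperm tail protein gene, had at most 2, and Hspb9, a testis gene, at most 3. Hspb11 had 51 to 121.8 counts per library, was tested and did not pass in any comparison. None of the 5 other BAG family genes passed either.

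Among 20 partners of chaperone-assisted autophagy, 0 were higher and 3 lower in aged vehicle than young vehicle muscle. Over all genes tested, 0.521% passed as higher and 0.695% as lower. The 2 groups did not overlap for 9 of the 20, with 5 above and 4 below. That stands against 26.2% of all genes, 12.7% above and 13.5% below. The 3 that passed are genes of the Hsp70 system known to be induced by heat. Dnajb1, the Hsp40 that stimulates Hsp70, had 10.5, 6.71 and 6.54 CPM in aged vehicle libraries against 84.8, 54.6 and 60.5 CPM in young vehicle libraries, 8.40-fold lower (edgeR adjusted p = 0.00178). Hspa1a had 21.3, 15.8 and 4.81 CPM in aged vehicle libraries against 483, 264 and 161 CPM in young vehicle libraries, 21.6-fold lower (edgeR adjusted p = 0.0383). Hspa1b was 25.5-fold lower (edgeR adjusted p = 0.0403), but these 2 genes are near-identical copies, and how reads were divided between them is uncertain. The groups did not overlap for any of the 3. Hspb1, Hspb8 and Bag3, the heat-inducible members with a paired heat shock unit, did not pass over the same libraries, at log2 fold changes of 0.24, 0.27 and −0.06. Cryab, which heat also induces, did not pass either, at 0.66 with every aged vehicle library above every young one.

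With GW8510 against aged vehicle, 0 of the 20 partners passed. Against young vehicle muscle 1 of the 20 passed, as lower, beside 0.417% of all genes tested. It was Dnajb1, 8.20-fold lower (edgeR adjusted p = 0.00164), at 6.72, 9.61 and 8.06 CPM in aged GW8510 libraries. Without aged vehicle library 4, Dnajb1 was the 1 partner that passed in the age comparison. The median log2 fold change over the 20 was 0.18 in aged vehicle against young vehicle muscle and −0.20 in aged GW8510 against aged vehicle muscle.

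Of 19 tested heat shock factors and regulators, 1 fell with age, beside 0.695% of all genes tested that passed as lower. It was Serpinh1, the collagen chaperone of the endoplasmic reticulum. Serpinh1 had 47.7, 46.5 and 23.0 CPM in aged vehicle libraries against 108, 135 and 125 CPM in young vehicle libraries (3.14-fold lower, edgeR adjusted p = 0.0394). The 10 fibroblast markers, all tested, moved with it as a sum, which was 315 to 664 CPM in aged GW8510 libraries, 146 to 597 CPM in aged vehicle libraries and 1281 to 2753 CPM in young vehicle libraries. Of the 10, Cd34 alone passed, 2.09-fold lower in aged vehicle than young vehicle muscle (edgeR adjusted p = 0.047). In that comparison all 10 had a log2 fold change below 0, with a median of −1.51 against 0.01 over all genes tested. The part of fibroblasts in the Serpinh1 result was not tested. No heat shock factor or regulator passed in either GW8510 comparison. None of the 15 tested kinases and phosphatases of small heat shock proteins passed in any comparison.

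Of 27 tested filament and Z-disc genes, the clients of these chaperones, 0 passed in aged vehicle against young vehicle muscle and 0 in aged GW8510 against aged vehicle muscle. In aged GW8510 against young vehicle muscle 1 was higher, beside 0.334% of all genes tested. It was Tcap, the titin cap protein gene. Tcap had 3032, 3840 and 2519 CPM in aged GW8510 libraries against 1259, 1341 and 1434 CPM in young vehicle libraries (2.33-fold, edgeR adjusted p = 0.0317). In aged vehicle libraries Tcap had 2492, 2647 and 1930 CPM, also above every young value and overlapping the GW8510 range, at 1.75-fold over young vehicle (edgeR adjusted p = 0.0913). Ankrd1, a titin-binding gene induced by muscle strain and injury, did not pass with age. It had 38.5, 28.9 and 117 CPM in aged vehicle libraries against 8.07, 7.49 and 13.3 CPM in young vehicle libraries (6.38-fold, edgeR adjusted p = 0.0754), with no overlap and with library 4 highest. Flnc and Sqstm1, which encode filamin C and the autophagy receptor p62 and were picked out after their values were seen, were high in the same library. Flnc had 378, 408 and 1729 CPM and Sqstm1 557, 539 and 1279 CPM in aged vehicle libraries 1, 3 and 4.

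Resemblance of pattern was measured as the root mean square difference of mean-centred log2 CPM over the 9 libraries, among 6873 genes averaging at least 10 CPM. For Hspb7 the nearest genes were Phlda3 (0.39), Prkcz (0.40) and Pde8a (0.45), against 1.10 for Hspb7's own spread around its mean. For Hspb6 they were Sorbs3, Dusp13 and Tpd52l1, each at 0.20 against an own spread of 0.63. For Hspb1 they included Usp28 (0.23) and Jup (0.23), against an own spread of 0.51. Hspb7, Hspb1 and the nearest genes named for them were all highest in aged vehicle library 4. Usp28 had 124 CPM and Jup 129 CPM there, against at most 62.9 and 88.3 CPM in any other library. These genes were picked for the smallest differences out of 6873, so the values are no test of a link. Among the members themselves, Hspb6 and Hspb7 differed by 0.63, the neighbours Cryab and Hspb2 by 0.38, and the closest pair, Hspb3 and Hspb8, by 0.23.

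In the authors' deposited table for aged vehicle and young vehicle muscle, Hspb6 and Hspb7 were marked as significant, with log2 fold changes of aged over young of 1.29 and 2.59. The authors' deposited table for aged GW8510 and young vehicle muscle marked the same 2 members, with log2 fold changes of GW8510 over young of 1.15 and 1.61. In the authors' deposited table for GW8510 and vehicle in aged muscle, none of the 8 was marked.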

How the data were processed

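Total RNA of mouse muscle was sequenced in 9 libraries, 3 per group by the labels. The tables hold estimated counts per gene, deposited by the authors without normalization, and TPM, also computed by the authors. The submitters' processing notes name GRCm38, CASAVA, HISAT2, StringTie, RSEM, DESeq2 and edgeR; versions, roles and the strand setting are not given in the sources used here. Deposited log2 fold changes, fold ratios and p-values of the authors were used only where named.

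Estimated counts, 91.4% of them whole, were rounded. edgeR 4.0.16 (R 4.3.3) with TMM factors, filterByExpr and the quasi-likelihood F test, two-sided, was fitted to all 9 libraries at once, with Benjamini-Hochberg adjustment over 14384 genes and a threshold of 0.05. Every printed p-value from edgeR comes from this fit unless another fit is named. CPM use effective library sizes; the median log2 fold change of all genes stayed within 0.03 of 0 in every scaling tried. The workflow was tested on simulated data. DESeq2 1.42.0, limma-voom (limma 3.58.1), RLE and upper-quartile factors, no filter, only the 6 libraries compared, a replicate block and leaving out each library were alternatives. Promoters came from RefSeq on GRCm38.p6, overlaps from GENCODE M21, which held all 55536 gene IDs. A coefficient of variation is the SD over the mean in percent. The members and gene lists were chosen with earlier results of these data known, so a list's count is no independent support. All 8 members are named; of the other lists, genes that passed and up to 2 of the smallest p, and the 3 genes nearest in pattern to the 3 members of widest range; 1 of these nearest genes is not reported here.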

Additional observations from a re-analysis of the deposited data

How the results depend on the processing

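In aged vehicle against young vehicle muscle the 2 members that passed stayed 2 under RLE factors, upper-quartile factors, no filter, DESeq2 and limma-voom, and were 0 with only the 6 libraries compared, 0 with a replicate block and 0 to 1 with a library left out. In aged GW8510 against young vehicle muscle, where 0 passed, 2 (Hspb6 and Hspb7) passed with only the 6 libraries compared, with no filter and with DESeq2, and 0 to 2 with a library left out, the 2 without aged vehicle library 4. In aged GW8510 against aged vehicle muscle 0 passed in every alternative. The cause of these changes was not tested. With the replicate block the log2 fold changes with age were 1.205 for Hspb6 and 2.65 for Hspb7 (edgeR adjusted p = 0.283 and 0.204). Deviations from the group means correlated at r of −0.209 to 0.138 between libraries of the same number, against −0.229 to 0.271 between unlike numbers. With 3 libraries per group this cannot exclude that the numbers pair them, and the labels do not say. Where 3 libraries became 2, the remaining ones were assumed to vary like the other groups.

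Directions turned only for members that had not passed in the comparison concerned. With the replicate block, Hspb2 was −0.27 and Bag3 0.0022 with age, and Hspb3 was −0.13 in aged GW8510 against young vehicle muscle; Hspb2 in that comparison was 0.022 with limma-voom. With a library left out, the ranges that crossed 0 with age were −0.42 to 0.50 for Hspb1, −0.12 to 0.30 for Hspb2 and −0.14 to 0.013 for Bag3. In aged GW8510 against aged vehicle muscle they were −0.32 to 0.092 for Hspb2 and −0.21 to 0.022 for Hspb6, and in aged GW8510 against young vehicle muscle −0.21 to 0.12 for Hspb2, −0.041 to 0.34 for Hspb3 and −0.044 to 0.12 for Bag3. Of the other alternative values, 154 without and 186 with a library left out kept direction and side of the threshold.

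Over all genes, 175 passed with age, against 50 with the 6 libraries compared, 699 with no filter, 943 with DESeq2, 5 with the replicate block and 19 to 148 with a library left out. In aged GW8510 against aged vehicle muscle 0 passed, 5 with no filter, 8 with DESeq2 and 0 to 2 with a library left out. In aged GW8510 against young vehicle muscle 108 passed, 469 with the 6 libraries compared, 553 with no filter, 825 with DESeq2, 8 with the replicate block and 25 to 594 with a library left out. At 3 libraries a group, a member's interval is wide: that of Hspb7 with GW8510 in aged muscle reached from −1.997 to 0.06.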
